A study of Chlorocebus sabaeus with 10 samples.

Results

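Phosphatidylcholine and phosphatidylethanolamine, the main membrane phospholipids of the hepatocyte, are made by a small set of enzymes, and the mRNAs of these enzymes were compared between livers of vervet monkeys on different diets. Members were chosen by gene symbol among 28078 annotated transcripts: the kinases CHKA, CHKB and ETNK2, the cytidylyl transferases PCYT2 and PCYT1A, the phosphotransferases CEPT1 and CHPT1, the methyltransferase PEMT, the decarboxylase PISD and the acyltransferase LPCAT3. Of these 10 genes, 9 were matched, each by 1 transcript, and PCYT1A was not analysed here. Liver biopsies came from 10 female vervet monkeys (Chlorocebus sabaeus), all kept on chow before the study, of which 5 then received the high fructose (HFr) diet and 5 stayed on chow for 6 weeks. The study calls them age-matched, although their mean age was higher on HFr, without a significant difference. Each animal gave 1 library of polyadenylated RNA, read as estimated counts per transcript. The HFr animals are written HFr 1 to HFr 5 and the controls chow 1 to chow 5.

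Most phosphatidylcholine and phosphatidylethanolamine is made by the parallel branches of the Kennedy pathway. Choline or ethanolamine is phosphorylated, activated to its CDP derivative and transferred to diacylglycerol. Liver has a further route, in which PEMT methylates phosphatidylethanolamine to phosphatidylcholine, and phosphatidylcholine is needed for the coat of very low density lipoproteins and for bile. Mitochondria make phosphatidylethanolamine from phosphatidylserine through PISD, and LPCAT3 exchanges the acyl chains of finished phospholipids.

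Between HFr and chow, none of the 8 members that passed the filter on low counts had an unadjusted p under 0.05 (edgeR's quasi-likelihood test). The largest difference was that of PCYT2, which was higher on HFr by 0.38 on the log2 scale and had all 5 HFr animals above the chow mean. PEMT and LPCAT3 were higher by 0.31 and 0.33, CHKA by 0.20, and CEPT1 stood at 0.00. CHKB, ETNK2 and CHPT1 were lower, by 0.14 to 0.29. The median log2 fold change of the 8 members was 0.10, beside -0.00 over the 7948 transcripts tested. Over those transcripts 341 (4.29%) had an unadjusted p under 0.05, and none (0%) had an adjusted p under 0.05, the smallest being 0.872. DESeq2 gave 330 of 7940 transcripts an unadjusted p under 0.05 and called 2 after adjustment, none of them a member. The adjusted p of edgeR was 0.9996 for each of the 8 members. No member had diets that did not overlap, compared with 43 transcripts (0.541%) of those tested.

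The libraries held 2977282 to 4992505 estimated counts, of which 864571 to 2657103 fell on nuclear transcripts, since transcripts of the mitochondrial genome took 41.8% to 67.8% on HFr and 34.7% to 73.6% on chow. Values below are normalized counts, the estimated counts divided by library sizes that were scaled with the trimmed mean of M values (TMM), given as CPM. These are not divided by transcript length, so levels were compared between animals and not between genes. The tissue label was checked on markers: 8 of 8 hepatocyte markers passed the filter, and their sum was 46347 to 71855 CPM on HFr and 37335 to 75640 on chow. Of 5 skeletal muscle markers none passed the filter, and CKM, MYH2 and MYL1 were at 0 in every animal. The others, ACTA1 and TNNT3, had low values that reached 1.83 and 0.914 CPM, both in chow 1. In whole biopsies, fewer hepatocytes and less RNA per hepatocyte cannot be told apart.

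**Figure D1:**
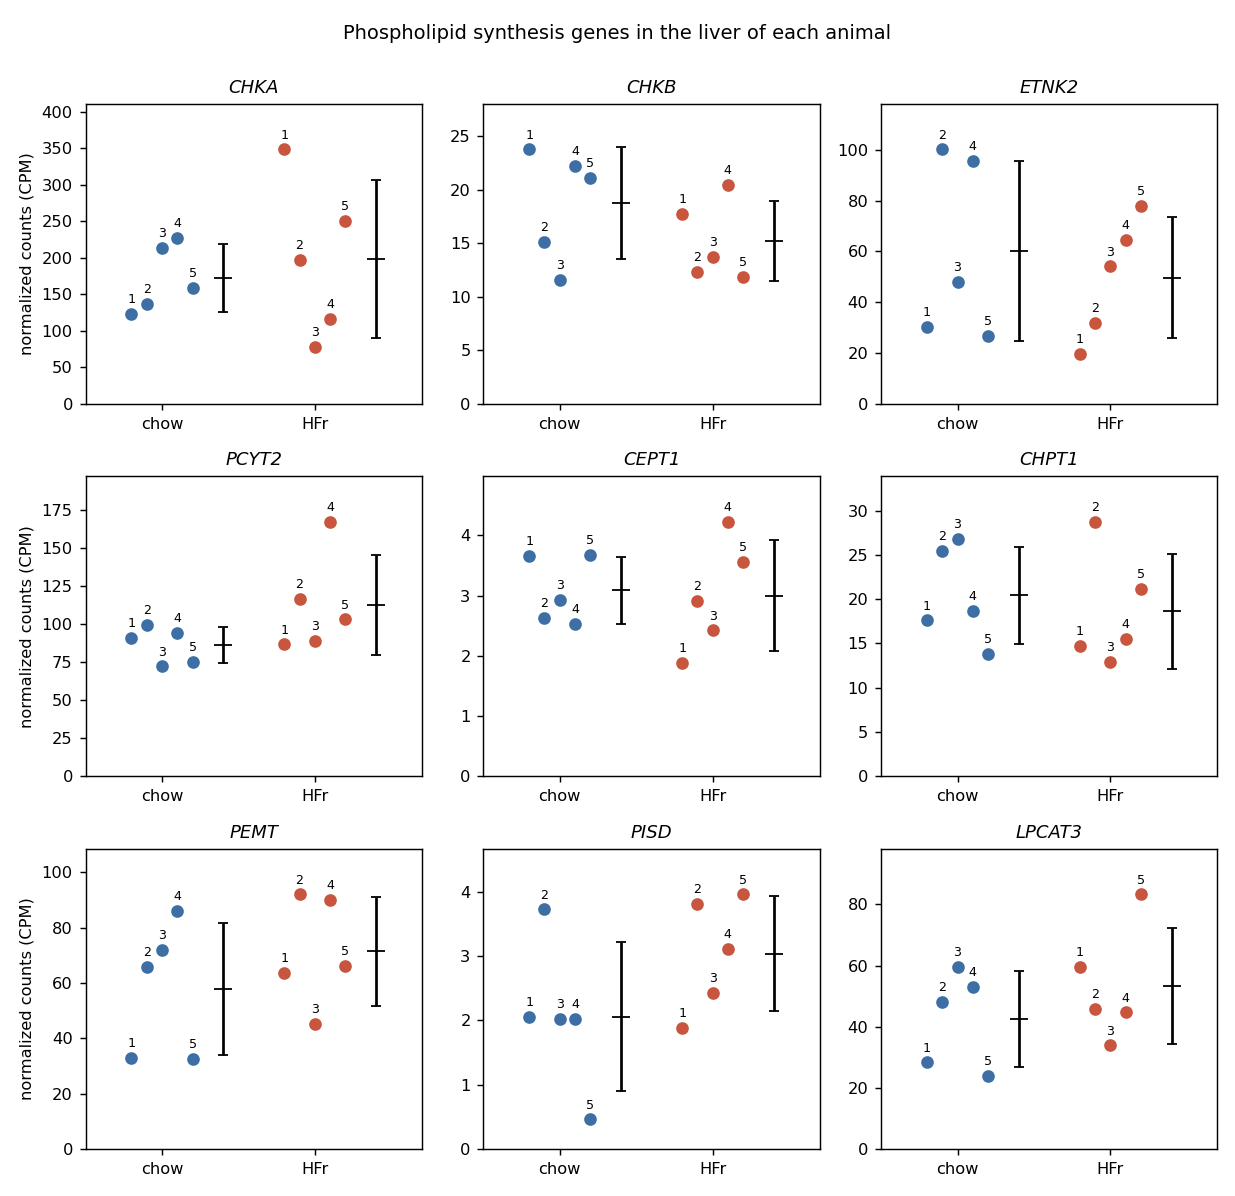
Normalized counts (CPM, vertical axis from 0) of 9 phospholipid synthesis genes in each liver, chow in blue and HFr in red, with the animal's number above its point. The bar beside each diet is the mean with its SD (n = 5 animals). In every panel the diets overlap, ETNK2 spreads widely on both, and the PEMT and LPCAT3 values of chow 1 and chow 5 lie under all others.

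The entry reactions were examined first. CHKA encodes choline kinase alpha, which phosphorylates choline and, less readily, ethanolamine (ENSCSAG00000008953; chromosome 1, 6412232 to 6483832, plus strand; coordinates are those of the ChlSab1.1 assembly, with the listed stop excluded). Its normalized counts were 348, 197, 77.9, 116 and 251 in HFr 1 to HFr 5 and 123, 137, 214, 227 and 159 in chow 1 to chow 5. The HFr animals held both the highest and the lowest values, and the chow values lay between them. The means were 198 ± 108 CPM on HFr (SD, n = 5) and 172 ± 46.5 on chow (SD, n = 5). For CHKA the log2 fold change was 0.20 with a standard error of 0.34, a 95% interval from -0.53 to 0.94 and an unadjusted edgeR p of 0.559. Without HFr 1, the animal with the highest value, it was -0.11, a change whose direction was fixed in advance. With each animal left out in turn it ran from -0.11 to 0.40.

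CHKB, choline kinase beta, is the second kinase of this kind and is encoded on chromosome 19 (ENSCSAG00000004793; 33055294 to 33059231, minus strand). Normalized counts were 17.7, 12.3, 13.7, 20.4 and 11.9 in HFr 1 to HFr 5 and 23.8, 15.1, 11.6, 22.2 and 21.1 in chow 1 to chow 5. The 3 highest values were those of chow 1, chow 4 and chow 5, while chow 3 was the lowest of all 10 animals. The log2 fold change of CHKB was -0.29, standard error 0.24, with a 95% interval from -0.79 to 0.22 and an unadjusted edgeR p of 0.246. The balance between the kinases was also compared within each animal. The log2 ratio of CHKA over CHKB (pseudocount 1) was 3.46 ± 0.943 on HFr (SD, n = 5) and 3.13 ± 0.651 on chow (SD, n = 5), a difference of 0.32 that was within the spread between animals (two-sided exact permutation test, p = 0.516, adjusted p = 0.762 over 2 ratios). The smallest p this design allows is 0.00794.

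ETNK2 encodes an ethanolamine kinase that is enriched in liver and opens the CDP-ethanolamine branch (ENSCSAG00000014439; chromosome 25, 25196324 to 25217917, plus strand). Its normalized counts were 19.6, 31.8, 54.1, 64.6 and 77.9 in HFr 1 to HFr 5 and 30.2, 100.1, 48.0, 95.5 and 26.7 in chow 1 to chow 5. Chow 2 had the highest value and HFr 1 the lowest, a 5.11-fold range, and each diet held both high and low animals. ETNK2 had the widest spread of the 8 tested members: the biological coefficient of variation, edgeR's estimate of the relative spread between animals of 1 diet, was 45.8%, at percentile 94.7 of all tested transcripts (median 25.0%). CHKA followed with 39.1%, at percentile 90.2. The diet means of ETNK2 were 49.6 ± 23.8 CPM (SD, n = 5) and 60.1 ± 35.4 CPM (SD, n = 5), with a log2 fold change of -0.27, standard error 0.41 and a 95% interval from -1.15 to 0.62. The unadjusted edgeR p was 0.527. Leaving out chow 2 moved the log2 fold change to 0.01, a direction fixed in advance because chow 2 held the highest value. With each animal left out in turn it ran from -0.49 to 0.01.

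The second step forms the CDP intermediates. PCYT2, the CTP:phosphoethanolamine cytidylyl transferase, catalyses the slow step of the ethanolamine branch (ENSCSAG00000002212; chromosome 16, 73776092 to 73784725, minus strand). Normalized counts were 86.7, 116, 89.2, 167 and 103 in HFr 1 to HFr 5 and 90.9, 99.2, 72.3, 94.0 and 75.4 in chow 1 to chow 5. HFr 4 was the highest, followed by HFr 2 and HFr 5, and the lowest values were those of chow 3 and chow 5. HFr 1 and HFr 3 lay within the chow range, so the diets overlapped. The means were 112 ± 32.8 CPM on HFr (SD, n = 5) and 86.4 ± 11.9 on chow (SD, n = 5). The log2 fold change was 0.38, standard error 0.20, with a 95% interval from -0.05 to 0.82 and an unadjusted edgeR p of 0.0809, the smallest p among the members. It stayed above 0 in each of 27 alternative fits, which gave 0.19 to 0.46 and unadjusted p-values from 0.0524 to 0.334. The lowest log2 fold change came without HFr 4.

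**Figure D2:**
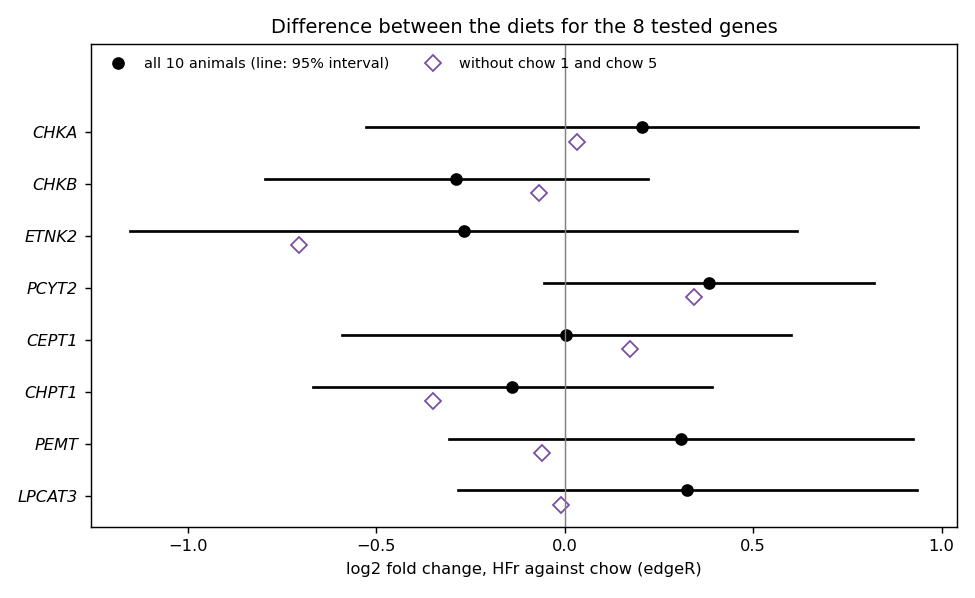
Log2 fold changes of the 8 tested genes, HFr against chow (horizontal axis, edgeR), as filled circles with their 95% intervals for all 10 animals and as open diamonds without chow 1 and chow 5. Every interval spans 0, that of PCYT2 by the least (-0.05), and the diamonds of PEMT and LPCAT3 lie at -0.06 and -0.01. Chow 1 and chow 5 held the lowest PEMT and LPCAT3 values, so leaving them out lowers both differences in any case.

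The last step of the Kennedy pathway joins the CDP derivative to diacylglycerol. CEPT1 accepts both CDP-choline and CDP-ethanolamine (ENSCSAG00000001570; chromosome 20, 22394722 to 22426513, minus strand). It was counted thinly, with 5 to 19 estimated counts per animal on HFr and 5 to 16 on chow. Normalized counts were 1.88, 2.92, 2.42, 4.22 and 3.56 in HFr 1 to HFr 5 and 3.66, 2.63, 2.93, 2.53 and 3.68 in chow 1 to chow 5. The HFr animals spanned the whole chow range. The log2 fold change was 0.00, standard error 0.28, with a 95% interval from -0.59 to 0.60 and an unadjusted edgeR p of 0.988. The interval holds differences in both directions, and the sign changed in 12 of 26 alternative fits.

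CHPT1, the cholinephosphotransferase of the Golgi, uses CDP-choline (ENSCSAG00000003350; chromosome 11, 96952051 to 96981432, plus strand). Normalized counts were 14.7, 28.7, 12.9, 15.6 and 21.2 in HFr 1 to HFr 5 and 17.6, 25.4, 26.8, 18.7 and 13.8 in chow 1 to chow 5. HFr 2 and HFr 3 were the highest and the lowest of the 10 animals. For CHPT1 the log2 fold change was -0.14, standard error 0.25, with a 95% interval from -0.67 to 0.39 and an unadjusted edgeR p of 0.582. The log2 ratio of CEPT1 over CHPT1 was -2.27 ± 0.470 on HFr (SD, n = 5) and -2.36 ± 0.524 on chow (SD, n = 5), a difference of 0.10 (two-sided exact permutation test, p = 0.762, adjusted p = 0.762 over 2 ratios).

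CHPT1 differed between animals of low and high mitochondrial share, a property of the libraries that was not tied to diet. The mitochondrial share left a gap between 4 animals at 34.7% to 44.0% (HFr 2, HFr 5, chow 2 and chow 3) and 6 animals at 57.1% to 73.6%. CHPT1 was 21.2 to 28.7 CPM in the former and 12.9 to 18.7 in the latter, with no overlap, a pattern that 276 (3.47%) of the 7948 tested transcripts also had. Among the other 7 tested members none was separated in this way. CHKB came nearest, with 11.6 to 15.1 CPM in the former and 13.7 to 23.8 in the latter. Over all 10 animals CHPT1 (log2 normalized counts) and the mitochondrial percent had a Pearson r of -0.84 (permutation test, p = 0.00433, adjusted p = 0.0346 over 8 members) and a Spearman rho of -0.76 (permutation test, p = 0.0153, adjusted p = 0.123). This r was -0.86 with the diet means removed (permutation test, p = 0.00514, adjusted p = 0.0411) and -0.76 without HFr 2 and chow 2, the animals farthest from the median share. For CHKB, r was 0.68 (permutation test, p = 0.0374, adjusted p = 0.150) and rho 0.59 (permutation test, p = 0.0799, adjusted p = 0.320), with an r of 0.73 with the diet means removed (permutation test, p = 0.0383, adjusted p = 0.153) and 0.68 without the same animals. No other member had a p under 0.05 in these permutation tests. Of the 7948 tested transcripts, 123 (1.55%) had an absolute r with this share of at least that of CHPT1. At least that of CHKB was reached by 750 (9.44%). The pooled values join animals on both sides of the gap. Within the 6 animals of higher share, CHPT1 and the mitochondrial percent had a Pearson r of -0.04 (exact permutation test, p = 0.942, adjusted p = 0.942 over 8 members) and a Spearman rho of -0.03 (exact permutation test, p = 1, adjusted p = 1). For CHKB the values within these 6 animals were -0.16 (exact permutation test, p = 0.735, adjusted p = 0.942) and -0.03 (exact permutation test, p = 1, adjusted p = 1). With the mitochondrial percent as a covariate, the log2 fold changes between the diets were -0.13 for CHPT1 and -0.29 for CHKB, about those of the fit without it. The 4 animals of lower share had 1802230 to 2657103 nuclear counts, and the 6 others had 864571 to 1887776. Share and nuclear depth thus largely went together. Why CHPT1 differed between these animals was not tested.

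**Figure D3:**
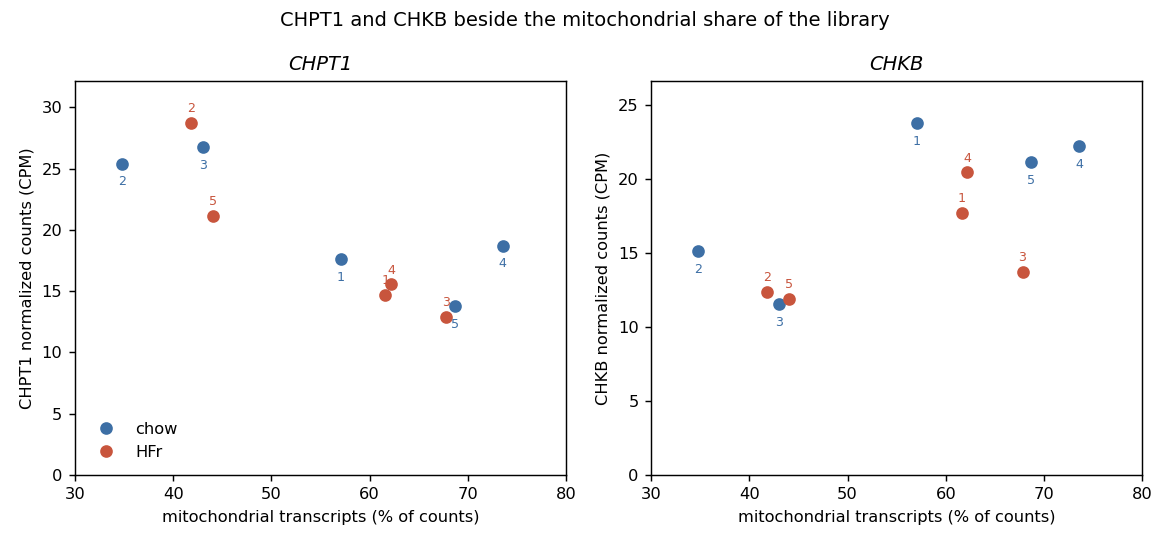
Normalized counts (CPM, from 0) of CHPT1, left, and CHKB, right, against the percent of each library's counts on mitochondrial transcripts, chow in blue and HFr in red, each point 1 numbered animal. The 4 animals at 34.7% to 44.0% all have more CHPT1 (21.2 to 28.7) than the 6 others (12.9 to 18.7), and both diets lie on each side of the gap.

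PEMT, which converts phosphatidylethanolamine to phosphatidylcholine by stepwise methylation, is the enzyme of this set most typical of hepatocytes (ENSCSAG00000008429; chromosome 16, 16539985 to 16611280, minus strand). Its normalized counts were 63.7, 92.0, 45.2, 89.97 and 66.3 in HFr 1 to HFr 5 and 32.9, 65.7, 71.9, 85.9 and 32.6 in chow 1 to chow 5. Chow 1 and chow 5 had the lowest values, and the other 3 chow animals lay within the HFr range. The means were 71.4 ± 19.6 CPM on HFr (SD, n = 5) and 57.8 ± 24.0 on chow (SD, n = 5). For PEMT the log2 fold change was 0.31, standard error 0.29, with a 95% interval from -0.31 to 0.92 and an unadjusted edgeR p of 0.299.

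LPCAT3, which places polyunsaturated acyl chains on lysophosphatidylcholine and lysophosphatidylethanolamine, had its lowest values in the same animals (ENSCSAG00000010132; chromosome 11, 7005701 to 7051606, minus strand). Normalized counts were 59.5, 45.8, 33.9, 44.7 and 83.3 in HFr 1 to HFr 5 and 28.3, 48.2, 59.6, 53.1 and 23.9 in chow 1 to chow 5. HFr 5 was the highest, and the remaining HFr animals overlapped the chow animals. The means were 53.4 ± 19.0 CPM (SD, n = 5) and 42.6 ± 15.7 CPM (SD, n = 5), with a log2 fold change of 0.33, standard error 0.28, a 95% interval from -0.28 to 0.94 and an unadjusted edgeR p of 0.271. One end of the gene overlaps ENSCSAG00000010140 on the opposite strand, which had a mean of 8.4 estimated counts. The libraries were stranded, but whether the counting used strand is not given in the sources used here. Other genes that overlap a member had at most 0.1 counts on average.

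The animals chow 1 and chow 5 also stood apart in the summed level of 8 stellate cell and fibroblast markers. All 8 genes of that list were matched and 6 were tested. The sum was 827 CPM in chow 1 and 686 in chow 5, and 179.9 to 407 in the other 8 animals. The matrix proteoglycan DCN, the highest marker of the list, had 501 and 370 CPM in these animals and 105 to 249 in the others. These animals held the highest 2 values for 4 of the 8 markers, DCN, COL1A2, LUM and PDGFRB, and not for COL1A1, COL3A1, ACTA2 or RGS5. Of the 6 tested markers 1 had an unadjusted edgeR p under 0.05, the smooth muscle actin ACTA2, which was highest in chow 5, chow 4 and chow 2, with a log2 fold change of -1.57, an unadjusted p of 0.00646 and an adjusted p of 0.9996. Having the lowest 2 values in exactly these animals was shared by 2 of the 8 members and by 341 (4.29%) of the tested transcripts. When both animals were left out, an alternative chosen after the values were seen, the log2 fold change of PEMT was -0.06, with an unadjusted edgeR p of 0.811, and that of LPCAT3 was -0.01, with an unadjusted edgeR p of 0.975. Both are chow animals with the lowest values of these genes, so the direction of this change was fixed in advance. In the same fit CHKA was at 0.03, CHKB at -0.07, ETNK2 at -0.70, PCYT2 at 0.34, CEPT1 at 0.17 and CHPT1 at -0.35. The sum of the 8 hepatocyte markers was 37335 CPM in chow 1, the lowest of all animals. In chow 5 that sum was 54342 CPM, above HFr 3 (46347), HFr 4 (48378) and chow 4 (53431) and below the remaining animals. The part of stromal cells in the values of the members was not tested.

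**Figure D4:**
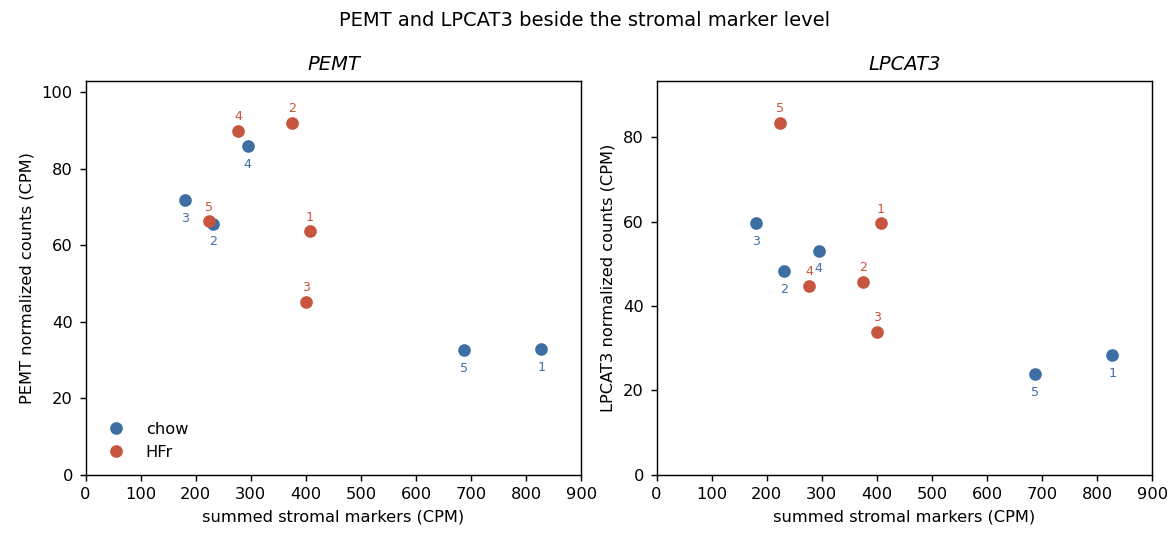
Normalized counts (CPM, from 0) of PEMT, left, and LPCAT3, right, against the summed CPM of 8 stellate cell and fibroblast markers, chow in blue and HFr in red, each point 1 numbered animal. Chow 1 (827) and chow 5 (686) lie to the right of all other animals (179.9 to 407) and hold the lowest values of both genes.

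PISD, phosphatidylserine decarboxylase of the inner mitochondrial membrane, did not pass the filter on low counts and has no test (ENSCSAG00000008655; chromosome 19, 14501215 to 14545038, minus strand). It had 5, 17, 6, 14 and 20 estimated counts in HFr 1 to HFr 5, 62 in all, and 9, 17, 11, 4 and 1 in chow 1 to chow 5, 42 in all. As normalized counts these were 1.88, 3.81, 2.42, 3.11 and 3.96 on HFr and 2.06, 3.72, 2.02, 2.02 and 0.460 on chow. The lowest value, that of chow 5, rests on 1 count, and HFr 2, HFr 5 and chow 2 stood together at the top. When every transcript with a count in any animal was tested, the log2 fold change of PISD was 0.52, with an unadjusted edgeR p of 0.242. In the fit without chow 1 and chow 5, where PISD passed the standard filter, it was 0.24 with an unadjusted edgeR p of 0.567, so the filter and the animals both differ between these values.

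The members were then compared with one another over the 10 animals. Of 28 pairs of the 8 tested members, 18 had a positive and 10 a negative Pearson r of log2 normalized counts, from -0.56 to 0.72, and none passed adjustment over the 28 pairs. PEMT and LPCAT3 had the highest r, 0.72 (permutation test, p = 0.0191, adjusted p = 0.535), with a Spearman rho of 0.47 (permutation test, p = 0.177, adjusted p = 0.620). Without chow 1 and chow 5, the animals farthest from the median of PEMT, which also had the lowest values of both genes, r was 0.20. CHKA and LPCAT3 had an r of 0.65 (permutation test, p = 0.0434, adjusted p = 0.564) and a rho of 0.76 (permutation test, p = 0.0161, adjusted p = 0.449). This r was 0.65 also without HFr 1 and HFr 3, the animals farthest from the median of CHKA.

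The surrounding pathway was described by a list of 83 other genes of phospholipid metabolism, of which 79 were matched and 45 tested. On HFr 21 of them were higher and 24 lower, the median log2 fold change was -0.01, and values ranged from -0.76 to 0.58. With edgeR 1 of the 45 had an unadjusted p under 0.05 (4.29% of all tested transcripts did), 0 passed adjustment, and none had diets that did not overlap.

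That gene was LCAT, the plasma enzyme secreted by liver that moves an acyl chain from phosphatidylcholine to cholesterol. Its normalized counts were 160, 175, 118, 207 and 135 in HFr 1 to HFr 5 and 140, 92.0, 112, 110 and 78.1 in chow 1 to chow 5. All 5 HFr animals were above the chow mean, although HFr 3 and HFr 5 were below chow 1. The means were 159 ± 34.5 CPM on HFr (SD, n = 5) and 106 ± 23.5 on chow (SD, n = 5), with a log2 fold change of 0.58, standard error 0.21 and a 95% interval from 0.13 to 1.02. The unadjusted edgeR p was 0.0143 and the adjusted p 0.9996. LCAT had an unadjusted p under 0.05 in 26 of 27 alternative fits, the exception being scaling by library size only, with an unadjusted edgeR p of 0.147. LCAT was named because of its p in these animals, and the alternative fits reuse the same animals. They are therefore not independent support. In its group, which holds phospholipid transfer, flipping and export, 4 of 8 tested genes were higher and 4 lower.

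Supply of the other substrates gave no gene with an unadjusted p under 0.05. Among glycerolipid enzymes that lead to diacylglycerol and CDP-diacylglycerol, 1 of 6 tested genes was higher and 5 were lower. GPAM, the mitochondrial acyltransferase that starts glycerolipid synthesis, had both the highest mean and the largest difference of that group, at 212 ± 168 CPM on HFr (SD, n = 5) and 359 ± 165 on chow (SD, n = 5). Its values were 137, 41.0, 184, 206 and 490 in HFr 1 to HFr 5 and 143, 578, 443, 362 and 270 in chow 1 to chow 5. HFr 5 lay above 4 of the 5 chow animals. The log2 fold change was -0.76, standard error 0.50, with an unadjusted edgeR p of 0.150. Without HFr 5, GPAM and LPCAT2 were among 3 genes of the list with an unadjusted p under 0.05.

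Transport of choline and ethanolamine held 4 tested genes, 2 higher and 2 lower. The choline transporter SLC44A1 had a log2 fold change of 0.48, with 6.14 ± 1.97 CPM on HFr (SD, n = 5) and 4.45 ± 2.06 on chow (SD, n = 5). The 9 tested genes of choline oxidation and methyl group metabolism lay close to 0, from -0.25 to 0.15. BHMT, which returns methyl groups from betaine to homocysteine, had 1036 ± 248 CPM on HFr (SD, n = 5) and 1107 ± 410 on chow (SD, n = 5). Reads of BHMT and its close copy BHMT2 may be split between them by the counting. MAT1A, which makes S-adenosylmethionine in liver, had the largest difference of this group, -0.25.

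The other groups held no gene with an unadjusted p under 0.05 either. PTDSS2 and PTDSS1, which make phosphatidylserine by base exchange, had log2 fold changes of -0.06 and -0.24 and were the only tested genes of the remaining synthesis enzymes, of which 5 were listed. Of 4 tested acyltransferases of the remodeling cycle, 1 was higher and 3 lower, with LCLAT1 at -0.23 and LPCAT2, a lysophosphatidylcholine acyltransferase, at -0.58. Breakdown held 12 tested genes, 8 higher and 4 lower. Of these, ETNPPL, the phospholyase that consumes phosphoethanolamine, was at 106 ± 34.7 CPM on HFr (SD, n = 5) and 104 ± 20.9 on chow (SD, n = 5), and the lysosomal phospholipase PLA2G15 was at 0.31 on the log2 scale.

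**Figure D5:**
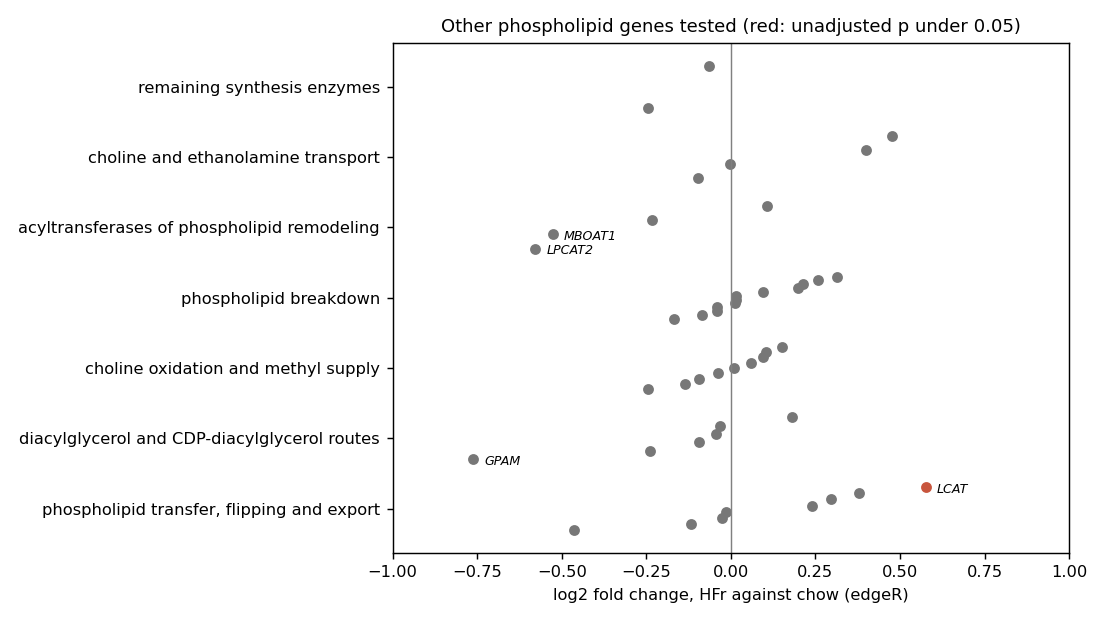
Log2 fold changes, HFr against chow (horizontal axis, edgeR), of the 45 tested genes of the wider list, 1 point per gene, in 7 groups by function (vertical axis). LCAT, in red, is the single gene with an unadjusted p under 0.05, GPAM lies farthest from 0 at -0.76, and 21 points lie above 0 and 24 below.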

How the data were processed

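The estimated counts deposited by the authors were made from stranded polyadenylated RNA libraries by alignment to ChlSab1.1 and expectation-maximization over Ensembl release 93 transcripts in Partek Flow (STAR 2.5.3a and CASAVA 1.8 are named in the submitters' processing notes). The normalized signal values deposited by the authors are these counts scaled per animal, and served only for an alternative, the equal-variance test of the study. Counts were rounded, filtered with filterByExpr (minimum count 10, minimum total 15) and tested over all 7948 transcripts by the quasi-likelihood method of edgeR, with TMM scaling (factors 0.607 to 1.49), diet as the single term and Benjamini-Hochberg adjustment. In edgeR, the standard error is the size of the log2 fold change over the square root of F. Its p-values set the diet difference against the spread between these animals, estimated with information shared over transcripts. The procedure was tested on simulated data. Correlations over 10 animals used 100000 resamples, and those with the diet means removed used all permutations within each diet. Versions were Python 3.11.15, scipy 1.17.1, R 4.3.3, DESeq2 1.42.0, limma 3.58.1 and edgeR 4.0.16.

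Members and lists were chosen with earlier results of these data known. Genes named are the members, wider-list genes with an unadjusted p under 0.05, and otherwise the gene of each group with the highest mean count and that with the largest absolute fold change. Ratios and pairs with PCYT1A were not run. One gene that this rule selects is not reported here, and the group counts include it. The split of the animals by mitochondrial share and the fit without chow 1 and chow 5 were chosen after the values were seen. The other alternatives were DESeq2, limma, voom, other scalings, filters, summed or unrounded counts, robust estimation, a covariate, a replicate block and each animal left out.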

Additional observations from a re-analysis of the deposited data

How the results depend on the processing

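No member reached an unadjusted p under 0.05 in any of 27 alternative fits, and PCYT2, CHKB and CHPT1 kept their direction in all of them. The log2 fold change of CEPT1 turned to -0.017 with the equal-variance test, -0.051 and -0.074 with limma at pseudocounts of 1 and 0.1, -0.079 with voom, -0.011 with library size only, -0.0011 without mitochondrial transcripts and -0.065 with the replicate block. With each animal left out in turn it ran from -0.16 to 0.11, CHKA from -0.11 to 0.40, ETNK2 from -0.49 to 0.0053, and the log2 ratio of CEPT1 over CHPT1 from -0.053 to 0.27. Without chow 1 and chow 5, which held the lowest values of both genes, PEMT was -0.060 and LPCAT3 -0.0084. CEPT1 was not tested where at least 10 counts were required in every animal. The wider list held 1 gene with an unadjusted p under 0.05. It held 2 with the equal-variance test, without mitochondrial transcripts and with any transcript that had a count, 0 with library size only, 3 without chow 1 and chow 5, and 1 to 3 with each animal left out (3 without HFr 5, 2 without chow 4). Library size only left 123 of 7948 transcripts under 0.05, against 341, and any count above 0 gave 756 of 16066. Same-numbered animals of the diets did not deviate together (correlations -0.29 to 0.10), and whether they were matched in the design cannot be told from this. The replicate block gave 271 transcripts under 0.05, 0 members and 1 gene of the wider list. The causes of these changes were not tested. With 5 animals per diet and 5 to 19 counts per animal for CEPT1 and 1 to 20 for PISD, small differences in these genes could not be resolved.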
